A study of Mus musculus with 4 samples.

Results

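The genes described here are those grouped as anti-apoptotic members of the BCL2 family. The members were fixed by gene name as Mcl1, Bcl2, Bcl2l1, Bcl2l2, Bcl2a1a, Bcl2a1b, Bcl2a1d and Bcl2l10. Every row of the deposited table of ATAC-seq peaks that carried one of these names was taken, at promoters and away from them alike. This gave 13 of 23595 peaks, belonging to 7 of the 8 genes, and no row carried the name Bcl2l2. ATAC-seq uses the Tn5 transposase to place sequencing adapters in open chromatin, so that the signal of a peak reports how accessible that stretch of DNA was. The cells were neutrophils, phagocytes that circulate for a short time and die readily by apoptosis, taken from mouse bone marrow by flow sorting and not cultured. The 2 groups were Morrbid-deficient cells on the C57BL6 background (KO) and wild-type C57BL6 cells (WT), with 2 libraries each. The series title names Morrbid as a long non-coding RNA and links it with the pro-apoptotic protein Bim and with how long certain myeloid cells live. The labels give no age, name no deletion strategy, and state that 50000 cells of each genotype were transposed in duplicate without naming separate animals. The p-values therefore rest on how far apart duplicate libraries lay, and that distance may be technical.

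The proteins of this family sit at the outer membrane of mitochondria, where they bind BH3-only proteins such as Bim and the effectors Bax and Bak and so hold back release of cytochrome c. MCL1 turns over fast and is required for the survival of mouse neutrophils. BCL-XL (from Bcl2l1), BCL-W (from Bcl2l2) and BCL2 itself are longer-lived relatives, and A1 is encoded by several near-identical mouse genes, here Bcl2a1a, Bcl2a1b and Bcl2a1d. Bcl2l10, also called Boo or Diva, is a divergent relative known mainly from the mouse germ line.

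The promoters of Mcl1 and Bcl2 are shown because the strongest peak of each gene lies over or beside its start site. They are the 250 bases before the RefSeq start, 5′ to 3′ along the gene, in build GRCm38.p6. Capitals mark every GGAAG, the core of ETS factor sites, and every TGACG, the core of the cyclic AMP response element, on either strand. The Mcl1 window is chr3:95658471-95658720 on the plus strand and the Bcl2 window chr1:106714291-106714540 on the minus strand.
Mcl1: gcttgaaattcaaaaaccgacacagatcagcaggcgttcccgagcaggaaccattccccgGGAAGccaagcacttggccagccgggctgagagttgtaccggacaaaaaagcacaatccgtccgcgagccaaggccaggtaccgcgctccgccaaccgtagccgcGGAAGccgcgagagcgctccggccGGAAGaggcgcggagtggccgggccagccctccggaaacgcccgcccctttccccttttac
Bcl2: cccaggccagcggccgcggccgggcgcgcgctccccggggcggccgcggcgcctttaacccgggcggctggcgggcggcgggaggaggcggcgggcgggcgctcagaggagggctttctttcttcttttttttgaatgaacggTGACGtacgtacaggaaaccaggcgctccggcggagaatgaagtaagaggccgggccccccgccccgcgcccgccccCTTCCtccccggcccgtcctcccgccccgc

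The Mcl1 window held 3 matches to GGAAG and none to TGACG. The Bcl2 window held 1 match to each, and no 2 of these matches overlapped. Of 32851 RefSeq promoter windows of this length, 64.1% held GGAAG and 17.8% held TGACG, so neither is rare. Of the other motifs searched on both strands, GGGCGG (the SP1 and KLF box, in 32.7% of windows) matched 1 time at Mcl1 and 7 times at Bcl2. The AP-1 pattern TGANTCA (6.7%), the STAT palindrome TTCNNNGAA (7.0%), the C/EBP palindrome TTGCNNCAA (1.7%) and the TATA box TATAAA (12.4%) had no match in either window. N stands for any base. GC made up 64.4% of the Mcl1 window and 74.8% of the Bcl2 window, against a median of 52.4% over all windows.

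The promoters of the Bcl2a1 genes are shown because their likeness limits how well reads can be told apart between them. The stretches end at the RefSeq start of Bcl2a1a and Bcl2a1d and at the matching base of Bcl2a1b, in GRCm38.p6, at chr9:88956714-88956919 (plus strand), chr9:89199023-89199228 (plus strand) and chr9:88731851-88732050 (minus strand) for Bcl2a1a, Bcl2a1b and Bcl2a1d. Capitals in Bcl2a1b and Bcl2a1d mark bases that differ from Bcl2a1a, and capitals in Bcl2a1a mark 6 bases of a repeat that Bcl2a1d lacks.
Bcl2a1a: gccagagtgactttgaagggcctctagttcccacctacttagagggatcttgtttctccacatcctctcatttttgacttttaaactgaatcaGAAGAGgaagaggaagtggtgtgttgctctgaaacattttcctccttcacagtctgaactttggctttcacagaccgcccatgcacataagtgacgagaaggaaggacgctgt
Bcl2a1b: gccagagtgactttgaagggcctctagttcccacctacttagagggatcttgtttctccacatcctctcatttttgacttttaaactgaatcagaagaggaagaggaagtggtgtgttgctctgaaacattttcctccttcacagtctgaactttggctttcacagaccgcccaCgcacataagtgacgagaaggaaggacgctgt
Bcl2a1d: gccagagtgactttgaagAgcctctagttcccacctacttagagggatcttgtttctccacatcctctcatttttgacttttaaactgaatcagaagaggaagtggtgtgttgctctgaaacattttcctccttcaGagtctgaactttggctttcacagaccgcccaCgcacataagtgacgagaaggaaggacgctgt

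Over these 206 bases Bcl2a1b differed from Bcl2a1a at 1 base. Bcl2a1d differed at 3 aligned bases and by the missing 6. In the whole 300-base windows the longest exact run shared by Bcl2a1a and Bcl2a1b was 174 bases, and that shared by Bcl2a1a and Bcl2a1d was 84 bases. No source used here gives the read length or the treatment of reads with several matches, so the split of signal among these 3 promoters is uncertain. All 3 stretches hold TGAATCA, a match to the AP-1 pattern TGANTCA, which 6.7% of all windows match on either strand. The search left the middle base free, and whether AP-1 binds there was not tested.

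The deposited values are a normalised signal per peak and library, and positions below are those of the deposited table, in mm9. Every value was a whole multiple of 1 step per library, and the libraries summed to between 3577922 and 7930547 steps, with both KO libraries above both WT libraries. Taking a step as a read, depth followed genotype and cannot be told apart from it. Of the neutrophil marker genes, 11 of 12 had a peak (Ly6g had none), with a summed signal of 7218 and 7485 in KO and 7184 and 6054 in WT. Of their 26 peaks 5 were called higher and 2 lower, where 10.6% of all peaks were called, and the part of this in the results was not tested. Of markers of other cells, 4 of 6 for monocytes or macrophages, 2 of 4 for eosinophils, 2 of 5 for mast cells or basophils and 2 of 6 for erythroid cells had a peak. Among the peaks of these 4 lists 1 was called, in the mast cell or basophil list, and the part of such cells in the results was not tested. Differences were tested with limma on log2(signal + 1) over all peaks, and a peak was called at an adjusted p below 0.05. Changes are log2 fold changes of KO over WT on that scale, with the standard error (SE), and means carry the SD of 2 libraries. An exact permutation test of 2 against 2 libraries cannot go below p = 0.333, so the calls rest on the spread that limma pools over peaks.

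Of the 13 peaks, 2 rose in KO, both at Bcl2l10, 3 fell, all upstream of Mcl1, and 8 were not called. Over all peaks 6.08% were called higher and 4.55% lower, 10.6% in all. Scaling moved that split, from 1434 higher and 1074 lower to 2248 and 777 under median centring and 879 and 1319 under total scaling. The median change of the 13 was 0.25 and that of all peaks -0.00. Both KO libraries lay above both WT libraries in 7 of the 13 peaks, below them in 4, and among them in 2. Over all peaks the groups did not overlap in 55.3%, with KO above in 28% and below in 27.3%. The 7 distal peaks held all 5 calls, where 8.9% of all distal peaks were called, 5.13% higher and 3.77% lower. The 6 promoter peaks held 0 calls by limma, where 13.5% of the promoter peaks of all genes were called, and 2 of the 6 had an unadjusted p under 0.05, as did 2801 of 8776 promoter peaks of all genes, a like share. Distal peaks are those over 1000 bp from a start site and not annotated as promoter.

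**Figure D1:**
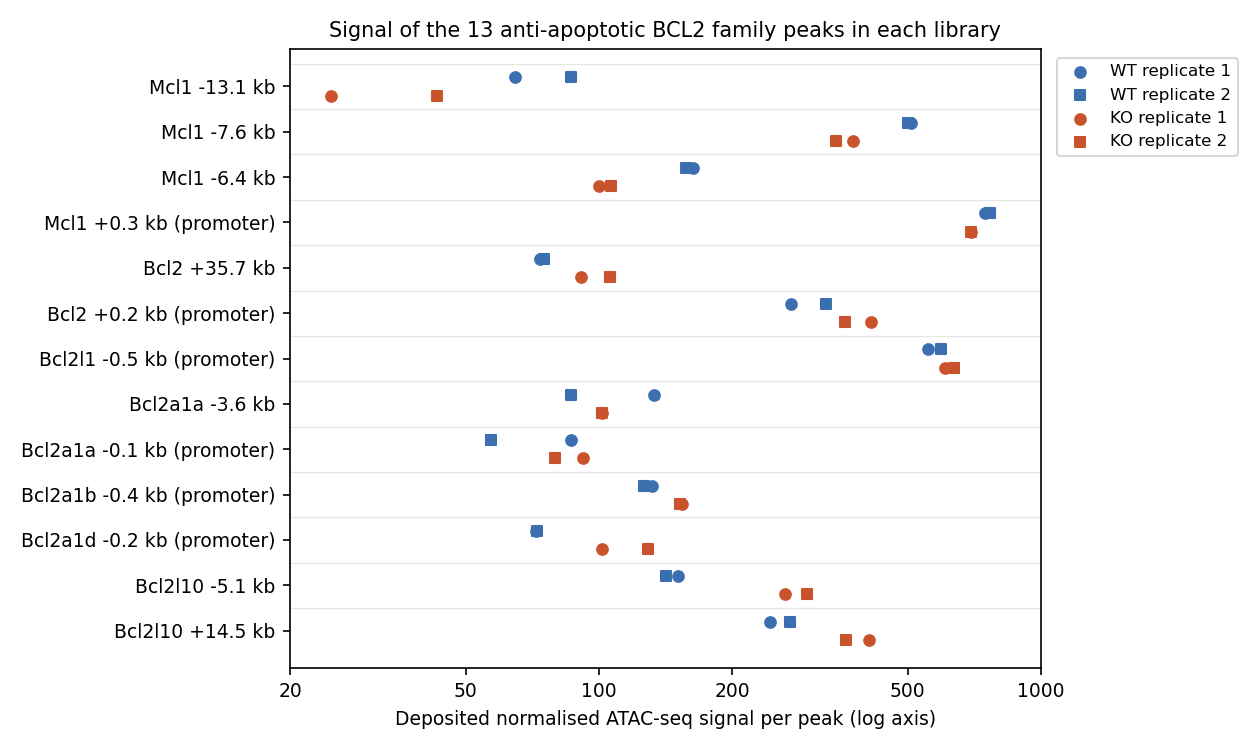
Deposited signal (log axis) of each of the 13 peaks in the 4 libraries, with WT in blue and KO in orange and the distance of the peak from the start site beside the gene name. The 3 upstream Mcl1 peaks have both KO libraries to the left of both WT libraries, and both Bcl2l10 peaks have them to the right.

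Mcl1, the survival factor neutrophils depend on, had lower accessibility upstream of the gene, while its promoter peak was not called. The strongest upstream peak lay at -7635 bp from the start site, at chr3:95454290-95455727, with a SINE repeat of the ID family as its detailed annotation. Read placement among copies of this repeat is not known here. Its signal was 508 and 501 in WT against 376 and 344 in KO. The groups were well apart, with means of 504 ± 4.77 and 360 ± 23.0 (log2 fold change -0.49, SE 0.114, limma adjusted p = 0.00759). By mean signal it stood at the 87.1th percentile of peaks. Peaks of like strength leaned the other way, with a median change of 0.09 and 2.54% called lower.

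A second peak at chr3:95455994-95456473, at -6410 bp, measured 163 and 157 in WT against 99.8 and 107 in KO. The replicates lay close together in both groups (log2 fold change -0.63, SE 0.189, limma adjusted p = 0.0336). The farthest and weakest peak, chr3:95449375-95449616 at -13148 bp, measured 64.6 and 86.3 in WT against 24.7 and 43.0 in KO. Its replicates were wide apart, although the groups did not overlap (log2 fold change -1.17, SE 0.313, limma adjusted p = 0.0176). It is a weak peak, at the 13.3th percentile of mean signal, and peaks of like strength leaned lower (median change -0.11, 4.66% called lower). At -6410 bp the peaks of like strength had a median change of -0.06, with 6.69% called lower.

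The Mcl1 promoter peak at chr3:95462343-95463563, centred 310 bp after the start site, measured 747 and 767 in WT against 695 and 696 in KO. Both KO libraries were lower here too, by a smaller amount, and the peak was not called (log2 fold change -0.12, 95% interval -0.31 to 0.06, limma adjusted p = 0.412). At this strength the median change of peaks was 0.15, with 24.9% called higher and 2.03% lower. Under cyclic loess the change of the promoter peak was -0.25 (limma adjusted p = 0.0828). Summed over the 3 distal peaks, Mcl1 measured 740 ± 6.60 in WT against 497 ± 5.23 in KO, 0.672 times the WT level. Fitted with the distal sums of all 6279 genes that have such peaks, a choice made after the peak values were seen, this gave a log2 fold change of -0.57 (SE 0.0990, limma adjusted p = 4.42e-05, 15.3% of genes called, 8.81% higher and 6.5% lower). Setting promoter against distal signal within each library, the Mcl1 ratio was 0.45 higher in KO on the log2 scale (95% interval 0.07 to 0.83). It did not pass over the 3362 genes with both kinds of peak (limma adjusted p = 0.269, unadjusted p = 0.0269), where 0.0297% of genes were called. The promoter was thus not shown to differ from the distal peaks in its change.

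The single-peak calls at Mcl1 depended on the libraries, and over all peaks too fewer were called without either KO library. The call of the peak at -7635 bp was lost without KO replicate 1 (limma adjusted p = 0.0571) and without KO replicate 2 (0.219), that at -6410 bp without each of them in turn (0.297 and 0.224), and that at -13148 bp without KO replicate 1 (0.338). The changes stayed near the full values at -7635 bp (-0.55 and -0.42 without KO replicate 1 and 2, SE 0.175 and 0.172) and at -6410 bp (-0.58 and -0.68). At -13148 bp they ran from -0.78 to -1.56. With 1 KO library left, the spread comes from the WT pair alone. The distal sum passed without any one library, with log2 fold changes from -0.58 to -0.56.

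None of the peaks of other genes around Mcl1 was called. Those of Adamtsl4, 15.5, 29.1 and 35.5 kb beyond the Mcl1 start site, had log2 fold changes of -0.40, -0.73 and -0.28 (limma adjusted p = 0.101, 0.0653 and 0.451), with both KO libraries below both WT libraries in each, as in 27.3% of all peaks. The Golph3l promoter peak, at -69.9 kb, had a log2 fold change of 0.39 (limma adjusted p = 0.147). Of the 5 such peaks within 100 kb, limma called 0, and 3 had an unadjusted p under 0.05, as did 6181 of all 23595 peaks.

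Bcl2, the founding member of the family, showed higher signal in KO at both assigned peaks, neither of which was called by itself. The promoter peak at chr1:108610309-108611117, in the 5′ UTR 154 bp after the start site, measured 272 and 326 in WT against 412 and 360 in KO. The KO libraries were both above the WT libraries, but the gap between the groups was narrower than the spread within either (log2 fold change 0.37, 95% interval 0.10 to 0.65, limma adjusted p = 0.0693). Peaks of like strength leaned the same way, with a median change of 0.09 and 10.1% called higher. The intronic peak at chr1:108574815-108575575, 35672 bp after the start site, measured 73.4 and 75.2 in WT against 91.0 and 106 in KO (log2 fold change 0.40, limma adjusted p = 0.276).

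The large intron of Bcl2 holds 4 further peaks that the deposited table assigns to Mir3473f, a microRNA gene inside it, because that start site is nearer. They were found by the transcript named in their annotation, after the values of the assigned peaks were known. The peak 86.9 kb after the Bcl2 start site, at chr1:108523657-108524302, measured 204 and 219 in WT against 338 and 309 in KO. It was called higher (log2 fold change 0.61, SE 0.141, limma adjusted p = 0.00663). A peak of similar strength at 132.3 kb, chr1:108478276-108478899, measured 257 and 295 in WT against 353 and 360 in KO and was not called (log2 fold change 0.37, limma adjusted p = 0.0678). The peaks at 134.2 and 165.1 kb had log2 fold changes of 0.41 and 0.23 (limma adjusted p = 0.201 and 0.556). In all 6 peaks of the Bcl2 gene body both KO libraries lay above both WT libraries, which held for 28% of all peaks.

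Per gene, with the signal of the 2 assigned peaks summed, Bcl2 rose from 373 ± 39.6 to 485 ± 26.2 (log2 fold change 0.38, SE 0.116, limma adjusted p = 0.0197 over 11693 genes). Of all genes 10.8% were called higher and 8.26% lower, 19.1% in all. With each peak given to the gene whose transcript its annotation names, the 6 peaks of Bcl2 summed to 1042 ± 64.0 in WT against 1392 ± 42.8 in KO (log2 fold change 0.42, SE 0.0757, limma adjusted p = 0.000150), where 19.8% of 11612 genes were called, 11% higher and 8.72% lower. The sum over 2 peaks was not called without KO replicate 1 (limma adjusted p = 0.310) or KO replicate 2 (0.143), while the sum over 6 passed in each case (0.0289 and 0.00890). Upstream of Bcl2, a Kdsr peak at -34.9 kb was called higher too (log2 fold change 0.67, limma adjusted p = 0.00850), and the Kdsr peak at -24 kb was not called (-0.47). The promoter peaks of Kdsr (0.23, limma adjusted p = 0.130) and Vps4b (0.18, 0.140) were not called either. Both KO libraries lay above both WT libraries in each, as in 28% of all peaks. Peaks as strong as these promoter peaks had a median change of 0.15, with 24.9% called higher.

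Bcl2 is also used by lymphocytes, so their markers are given here. Among B cell markers Ebf1 had peaks, and Cd79a, Cd79b, Ms4a1 and Pax5 had none. The 5 Ebf1 peaks summed to 427 and 439 in KO and 396 and 399 in WT, and none was called by limma. Of 6 T cell markers only Cd3d had a peak, with a signal of 208 and 170 in KO and 188 and 217 in WT, while Cd3e, Cd4, Cd8a, Lck and Cd28 had none. The part of other cells in the Bcl2 result was not tested.

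**Figure D2:**
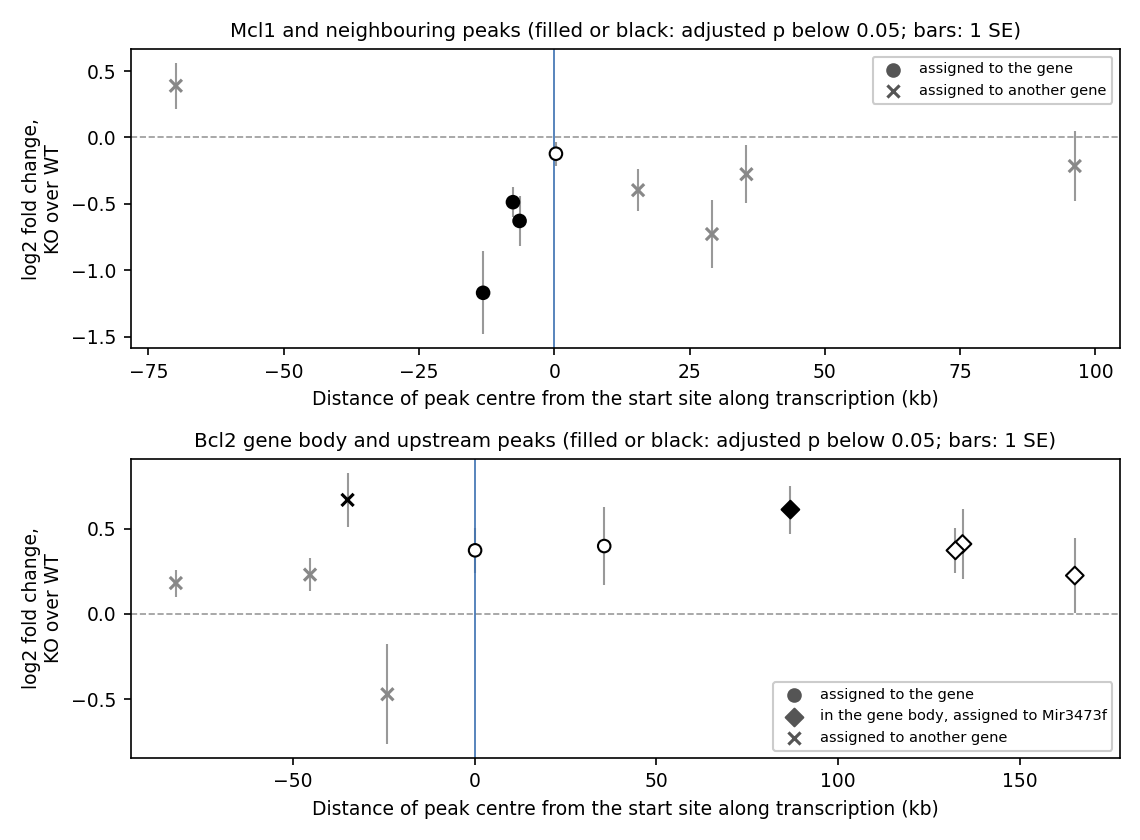
Log2 fold change (KO over WT) of each peak against the distance of its centre from the start site in kb, for Mcl1 above and Bcl2 below. Circles are peaks assigned to the gene, diamonds peaks in the Bcl2 body assigned to Mir3473f, crosses peaks of other genes, bars are 1 SE, and filled or black symbols passed the test. The 3 upstream peaks assigned to Mcl1 lie below 0, and all 6 peaks of the Bcl2 body lie above it.

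Bcl2l1, which encodes BCL-XL, had 1 peak by name, at its promoter, at -464 bp, at chr2:152656278-152657557. Its signal was 555 and 593 in WT against 608 and 637 in KO. The groups were narrowly apart, and the change was small (log2 fold change 0.12, 95% interval -0.09 to 0.32, limma adjusted p = 0.482). It was near the median change of 0.15 of peaks of like strength, of which 24.9% were called higher. A further peak lies in a Bcl2l1 intron but is assigned to Cox4i2, and it measured 166 and 154 in WT against 190 and 190 in KO (log2 fold change 0.24, limma adjusted p = 0.367). The interval of the promoter peak leaves room for a rise of up to 0.32, so equality was not shown.

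The A1 genes had 3 promoter peaks and 1 distal peak, all on chromosome 9, and none was called by limma. Bcl2a1d, at chr9:88626539-88627287, came nearest, with a signal of 71.9 and 72.4 in WT against 102 and 129 in KO. The WT pair agreed closely, the KO pair did not, and the groups were apart (log2 fold change 0.66, 95% interval 0.19 to 1.12, limma adjusted p = 0.0600). As a gene with 1 peak it has the same values in the test per gene, where it passed at limma adjusted p = 0.0439 over the table of genes, a call that was lost without KO replicate 1 (0.163) and KO replicate 2 (0.522). The Bcl2a1b promoter peak at chr9:89093216-89094290 measured 132 and 127 in WT against 155 and 152 in KO (log2 fold change 0.25, limma adjusted p = 0.415). The Bcl2a1a promoter peak at chr9:88851386-88851971 had 86.6 and 57.1 in WT against 91.8 and 79.7 in KO, and the groups overlapped (log2 fold change 0.28, limma adjusted p = 0.513). Its sign turned without WT replicate 2 (-0.02). The distal Bcl2a1a peak, at -3622 bp, measured 134 and 86.3 in WT against 102 and 102 in KO, and the groups overlapped again (log2 fold change -0.08, limma adjusted p = 0.863). With the shared sequence shown above, a change at one of these promoters cannot be assigned to that copy with certainty.

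Bcl2l10 carried the rises that passed, yet neither of its peaks lies at its promoter. The peak at -5066 bp, at chr9:75190270-75190728, is annotated to an intron of the neighbouring gene Gnb5 and to an MTC element, an LTR retrotransposon of the MaLR class. Its signal was 151 and 142 in WT against 263 and 296 in KO, 1.91-fold higher in KO (log2 fold change 0.92, SE 0.157, limma adjusted p = 0.000532). The distance between the groups was several times the spread within either, and the peak ranked 154th of all 23595 by p. How reads were placed among copies of this repeat is not known here. The intergenic peak 14492 bp after the start site, at chr9:75209637-75210478, measured 244 and 270 in WT against 408 and 362 in KO (log2 fold change 0.58, SE 0.132, limma adjusted p = 0.00612). Among peaks of like strength the median change was 0.09 and 10.1% were called higher. Its call was lost without KO replicate 1 (adjusted p = 0.207) and KO replicate 2 (0.0551). The gene sum rose from 403 ± 12.2 to 665 ± 9.14 (log2 fold change 0.72, limma adjusted p = 9.32e-06).

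Around Bcl2l10, 5 peaks of other genes lie within 100 kb, and limma called 0 of them, with 2 at an unadjusted p under 0.05, against 6181 of all 23595 peaks. Their log2 fold changes ran from -0.39 to 0.74, and the promoter peak of Gnb5 itself measured 142 and 157 in WT against 148 and 152 in KO, with overlapping groups. When the intronic peak is given to Gnb5 by its transcript, Bcl2l10 keeps the intergenic peak alone (limma adjusted p = 0.00180).

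No row named Bcl2l2, which encodes BCL-W. In the RefSeq gene order of GRCm38.p6 it lies between Ppp1r3e and Pabpn1, and the promoter peaks of both are in the table. Their log2 fold changes were -0.21 and 0.25 (limma adjusted p = 0.511 and 0.0924), and neither was called. The absence of a consensus peak is no measure of accessibility at Bcl2l2.

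**Figure D3:**
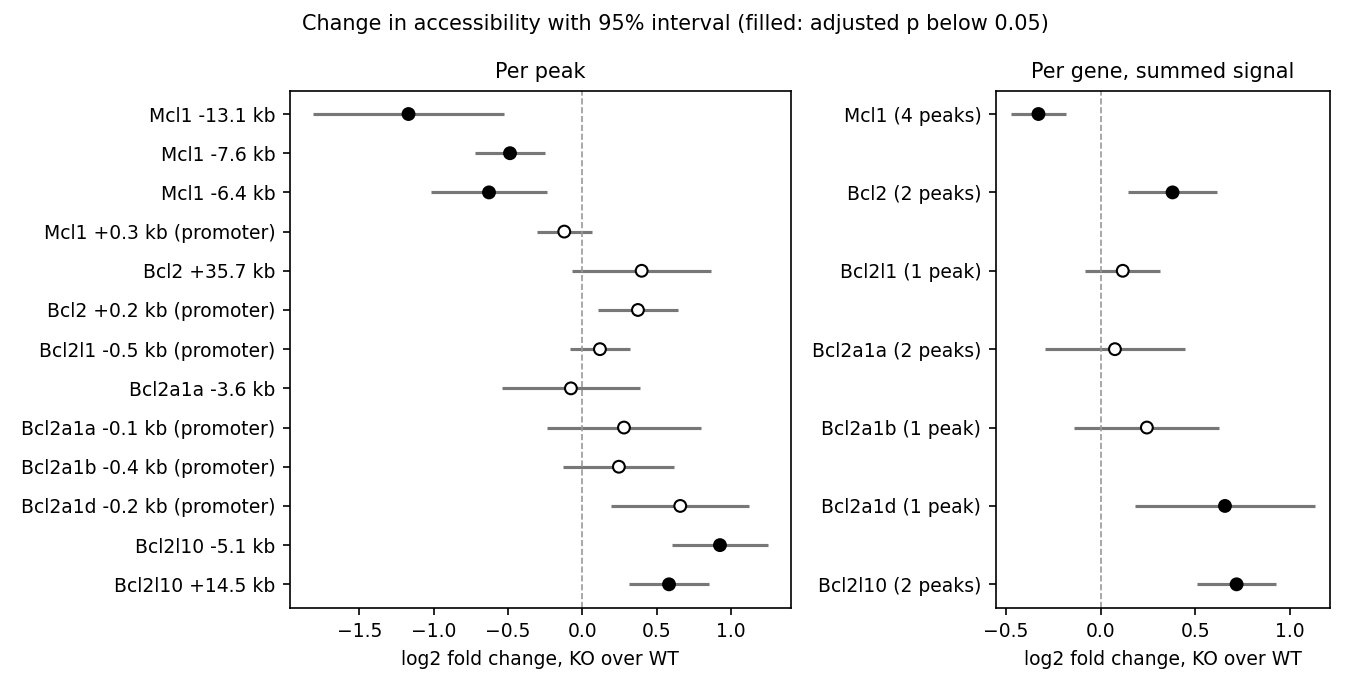
Log2 fold change of KO over WT with its 95% interval for the 13 peaks (left) and for the summed signal of the 7 genes (right), filled where the adjusted p was below 0.05. Mcl1 is the only gene left of 0 on the right, at -0.33, and Bcl2, Bcl2a1d and Bcl2l10 are filled to the right of 0.

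Joined per gene, Mcl1 fell, Bcl2, Bcl2a1d and Bcl2l10 rose, and Bcl2l1, Bcl2a1a and Bcl2a1b were not called, so 4 of 7 genes passed where 19.1% of all genes did. The single peak of Bcl2a1d was not called in the test per peak (limma adjusted p = 0.0600). Its gene call was lost under total scaling (limma adjusted p = 0.0673). The Mcl1 sum over its 4 peaks fell from 1497 ± 20.6 to 1192 ± 4.77 (log2 fold change -0.33, SE 0.0713, limma adjusted p = 0.00146). Without KO replicate 1 or 2 the adjusted p of Mcl1 was 0.0588 or 0.0722. In these 2 fits Bcl2l10 alone was called.

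The order of promoter accessibility per length set Mcl1 apart from the A1 genes. Per kb of peak, the WT level was 611 and 628 at Mcl1, 433 and 463 at Bcl2l1, and 335 and 402 at Bcl2. The A1 genes followed far below, at 148 and 97.2 for Bcl2a1a, 123 and 118 for Bcl2a1b, and 95.9 and 96.5 for Bcl2a1d. Mcl1, Bcl2l1 and Bcl2 did not overlap one another in WT, while Bcl2a1a overlapped Bcl2a1b. Among 8776 promoter peaks, 1 per gene, Mcl1 stood at the 86.7th percentile of WT signal per kb and Bcl2a1d at the 0.570th. In KO the levels of Mcl1 (569 in both libraries) stayed above those of Bcl2l1 (474 and 498) and Bcl2 (509 and 445), and the last 2 overlapped. The part of the shared sequence in the low A1 levels was not tested.

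The promoters most like that of Mcl1 over the 4 libraries, by Euclidean distance of log2(signal + 1), were those of Rgcc (0.0662), Ino80 (0.0897) and Cbx8 (0.0919). For the Bcl2 promoter they were Dact3 (0.118), Fam160b2 (0.130) and E2f1 (0.141). The search ran over 8775 other promoters with 4 libraries each.

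**Figure D4:**
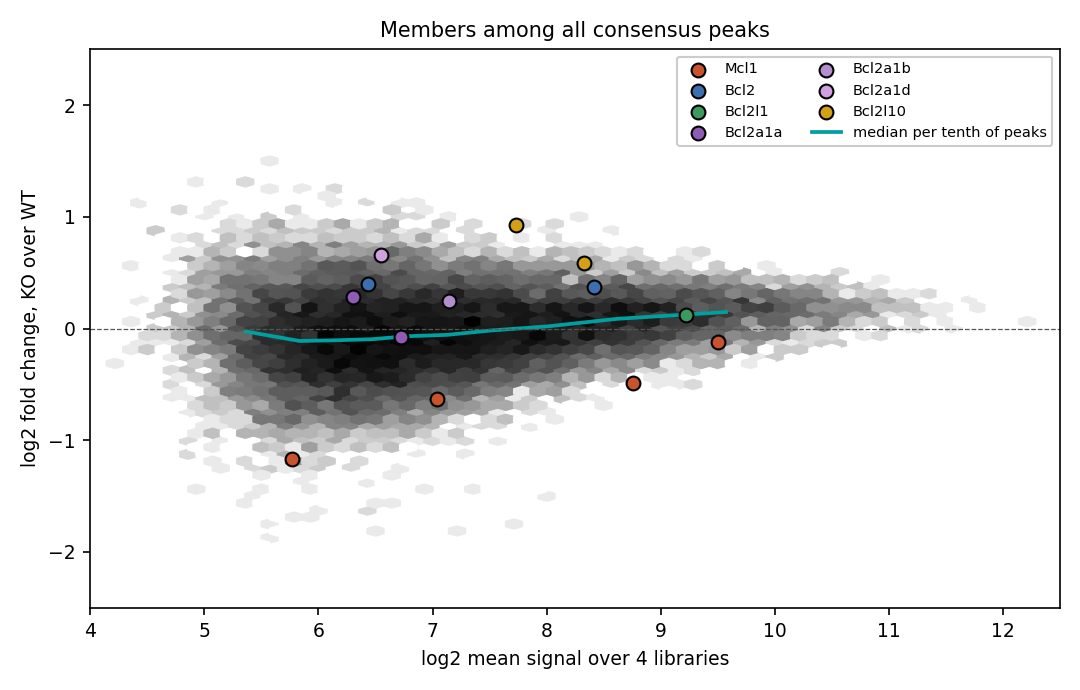
Log2 fold change of KO over WT against log2 mean signal for all peaks (grey, darker where more peaks lie), with the 13 member peaks in colour by gene and the median change of 10 bins of peaks by signal as a line. The line lies below 0 for weak peaks and reaches 0.15 for the strongest, and the 4 Mcl1 peaks lie below it.

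Genes that act with these proteins were read from their promoter peaks, 1 per gene. The lists were chosen with earlier results of these data known, so their counts are no test of a pathway. Of 59 listed names, with Becn1 listed also as Beclin1, 39 had one. Among these 39, 5 rose, 7 fell and 27 missed the threshold, against 7.68% higher and 5.83% lower among all promoter peaks. The median change of the 39 was 0.04 and that of all promoters -0.02. With either KO library left out limma called fewer of the 39, as it did over all peaks.

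Among 10 promoters of pro-apoptotic relatives, which the proteins above bind or oppose, 1 rose (Bnip3l), 1 fell (Bax) and 8 were not called, with a median of -0.12. Bax, an effector that opens the mitochondrial outer membrane, measured 235 and 224 in WT against 160 and 150 in KO (log2 fold change -0.56, limma adjusted p = 0.0253). The Bnip3l promoter, of a mitophagy receptor, measured 741 and 740 in WT against 892 and 951 in KO (0.31, limma adjusted p = 0.0208). Its call was lost under total scaling (0.0561) and cyclic loess (0.213). Peaks of like strength had a median change of 0.15, with 24.9% called higher. Bcl2l11, which encodes Bim, was not called (0.22, limma adjusted p = 0.185), nor was Bmf, a further BH3-only gene (-0.57, 0.0718). Pmaip1 (-0.25, 0.179) and Bak1, the other main effector (-0.46, 0.204), were not called either. None of 5 promoters of genes that act on MCL1 stability was called by limma, and 1 had an unadjusted p under 0.05. It was that of Fbxw7, which encodes a ubiquitin ligase subunit for MCL1 (log2 fold change 0.14, adjusted p = 0.179), and Huwe1, another ligase for MCL1, had 0.18 (0.310). Downstream of mitochondria 6 promoters had a peak. Of these, 0 were called by limma and 3 had an unadjusted p under 0.05, with Xiap, the caspase inhibitor, at -0.78 (adjusted p = 0.103).

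Genes that carry survival signals to the BCL2 family held most of the calls, with 2 of 12 promoters higher, 5 lower and 5 not called. Among all promoter peaks 7.68% were higher and 5.83% lower, 13.5% in all. This list was chosen with earlier results of these data known, so its count is a description only. The promoter of Csf3r, the receptor for G-CSF that sustains neutrophils and also 1 of the neutrophil markers, measured 148 and 175 in WT against 96.3 and 89.4 in KO (log2 fold change -0.79, limma adjusted p = 0.0112). Stat5a and Stat5b, which encode neighbouring transcription factors of cytokine receptors, fell as well (-0.62 and -0.56, adjusted p = 0.0306 and 0.0411). Both lie on chromosome 11, where 9.73% of peaks were called lower, and the part of that in their change was not tested. Their calls moved with scaling, that of Stat5b being lost under median centring (0.0658) and both under cyclic loess (0.0569 and 0.0640). Cebpb, a transcription factor of myeloid cells, fell by 0.39 on the log2 scale (limma adjusted p = 0.0110).

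NF-kB subunits, activators of the A1 genes and Bcl2l1, went in different directions. Relb rose from 671 to 914 in mean signal (log2 fold change 0.45, limma adjusted p = 0.00213). Peaks as strong as that of Relb had a median change of 0.15, with 24.9% called higher. Under cyclic loess the Relb change was 0.31 (limma adjusted p = 0.0341). Nfkb1 rose from 240 to 346 (0.54, limma adjusted p = 0.0165). The Rela promoter fell from 150 and 171 in WT to 95.4 and 88.7 in KO (log2 fold change -0.79, adjusted p = 0.0109). Among membrane partners, with 6 promoter peaks, Vdac3 and Itpr1 rose (0.54 and 0.46, limma adjusted p = 0.00827 and 0.0395). Becn1, the autophagy protein that BCL2 binds, fell (-0.67, limma adjusted p = 0.00982). Like Stat5a and Stat5b, Becn1 lies on chromosome 11, where 9.73% of peaks were called lower. The part of that in the Becn1 change was not tested. The Itpr1 call was lost under total scaling (0.0706) and cyclic loess (0.0630).

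**Figure D5:**
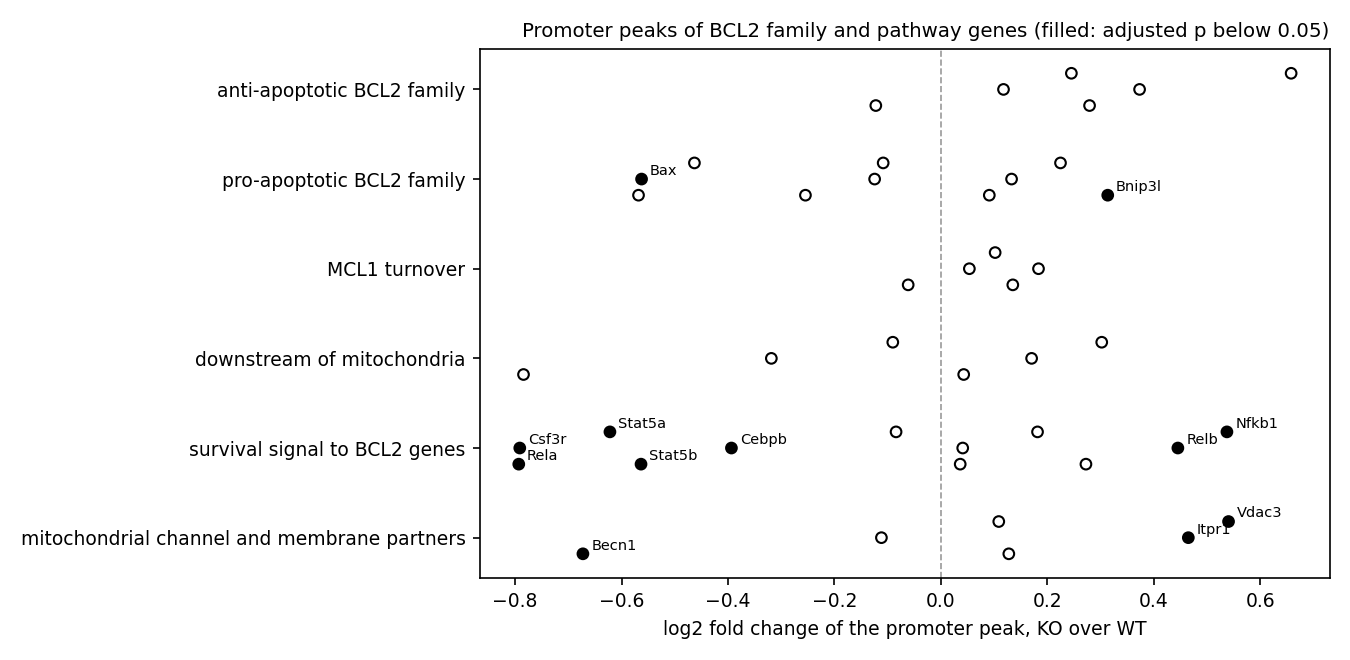
Log2 fold change of KO over WT at 1 promoter peak per gene for the anti-apoptotic BCL2 family and 5 lists of genes that act with it, each circle a gene, filled and named where the adjusted p was below 0.05. None of the 6 anti-apoptotic promoters is filled, and the list of survival signals holds 7 filled circles on both sides of 0.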

How the data were processed

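The authors deposited 1 table of consensus ATAC-seq peaks with a normalised signal per library and peak. Per the submitters' processing notes, the build was mm9 and the tools, in no stated role or order, included HOMER, DiffBind, MACS2 2.1.0, BWA, R 3.1.1, Trimmomatic 0.32 and bcl2fastq 2.16.0. No source used here gives parameters, duplicate removal, any shift for the Tn5 offset or the rule for consensus peaks. An unshifted read moves a peak edge by a few bases, little against a median width of 573 bp, and starts may be off by 1 or 2 bases because widths exceed end minus start by 2.

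Members and gene lists were chosen with earlier results of these data known. Groups and numbers came from the titles, and 0 per-sample columns were left unused. All 23595 values of each library were whole multiples of 1 step within 0.001, but low values did not show that a step is a read, so no count model was used. The test was limma 3.58.1 in R 4.3.3 (two-sided, mean-variance trend, genotype only, pseudocount 1, which shrinks changes of weak peaks), with Benjamini-Hochberg adjustment over all peaks or genes, after tests on simulated data. Promoter peaks were those annotated as promoter or within 1000 bp of a start site, the nearest per gene. The text names every member peak, called promoters of the pathway lists and otherwise up to 4 of lowest p. Promoter sequences are RefSeq's in GRCm38.p6, matched by symbol for 7 of 8 genes. Transcripts of 16056 of 16184 peaks annotated to one matched a RefSeq gene. Alternatives were other pseudocounts, a signal filter, scalings, no trend, a replicate block and each library left out. Figures used matplotlib 3.10.9.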

Additional observations from a re-analysis of the deposited data

How the results depend on the processing

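The directions of the 5 called member peaks held in every alternative run, and their calls held with pseudocounts of 0.5 and 10, with peaks of mean signal of at least 50 only, under total scaling and with a replicate block. Of 13 member peaks, the 2 higher became 4 under median centring, where Bcl2 and Bcl2a1d promoters passed (adjusted p = 0.0301 and 0.0346), and Bcl2a1d passed under cyclic loess (0.0460). The Mcl1 peak at -6410 bp missed under median centring (0.0506) and cyclic loess (0.0638). Without a mean-variance trend limma called 0 member peaks higher and 0 lower, 0 genes higher and 0 lower, with 7 peaks and 4 genes at an unadjusted p under 0.05, and over all peaks it called 0 higher and 22 lower, so the calls rest on the trend. Leaving out 1 library, the member peaks called ranged from 1 to 4 higher and from 0 to 3 lower, genes from 1 to 3 higher and 0 to 1 lower, and pathway promoters from 0 to 10 higher and 0 to 8 lower. Pathway promoters called higher numbered 3 under total scaling and 3 under cyclic loess. Among genes, 1 was higher with distal peaks only, an alternative added after seeing the data, and Bcl2a1d missed under total scaling (0.0673) and Bcl2 with log2 values averaged over its peaks (0.0843). Without a trend, the Mcl1 distal sum and the Bcl2 sum over 6 peaks missed (0.0858 and 0.104), and they passed under the scalings and the replicate block.

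Signs turned for values that were not called: the Bcl2a1a distal peak without WT replicate 1 (range over libraries left out -0.39 to 0.23), its promoter peak and gene sum without WT replicate 2 (-0.017 to 0.58 and -0.23 to 0.38), its gene value with distal peaks only (-0.078), and the Bcl2 promoter minus distal difference without KO replicate 2 (0.18) and WT replicate 2 (0.09). In the fit with the replicate number as a block, 3 member peaks were higher and 3 lower, the Bcl2 promoter being added (adjusted p = 0.0499), and 1656 and 1279 over all peaks against 1434 and 1074. The numbers are not said to mark a pairing, and deviations of same-numbered libraries had a correlation of -0.04 across peaks. Over all peaks the calls higher and lower were 2248 and 777 under median centring, 879 and 1319 under total scaling, and 807 and 888 under cyclic loess. They were 276 and 312 without KO replicate 1, 185 and 237 without KO replicate 2, 2610 and 2189 without WT replicate 1, and 2250 and 1580 without WT replicate 2. The cause of these moves was not tested. The scalings moved the median of all peaks by under 0.1. The test on reads recovered from the steps was not run, since low values did not show that a step is a read, and the promoter class by annotation alone gave no value for Mcl1 and Bcl2, whose start-site peaks are annotated as exon and 5′ UTR.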
